A study of Homo sapiens with 5 samples.

Results

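The genes described here encode the enzymes and transporters of glycolysis and of the pentose phosphate pathway. The set was chosen by pathway membership, with earlier results of these data known, so no enrichment was tested. It holds 33 of the 20037 protein-coding genes in the RefSeq annotation of GRCh38.p14. A peak was counted for a gene when any base of it lay within 1 kb of either gene end. Binding was read by ChIP-seq (sequencing of immunoprecipitated chromatin) in cells of MIA PaCa-2, an established line from a human pancreatic cancer, with 1 library in each of 5 groups. The Mediator subunits MED17 and MED30 were mapped in parental cells under normal culture. The transcription factor MYC was mapped in MIA PaCa-2 cells with a Tet-on short hairpin RNA against MED30 (the shMED30 line) after 3 days of doxycycline, in the same line without doxycycline, and in parental cells. The labels do not say whether the hairpin line is 1 clone or a pool, and the MED30 level of these cells was not analysed here. Chromatin for Mediator was fixed with disuccinimidyl glutarate and then formaldehyde, and chromatin for MYC with formaldehyde alone, so fixation differs wherever Mediator is set beside MYC. As no group had a replicate, the spread between replicates is unknown and no difference was tested.

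Glycolysis splits glucose to pyruvate, and in many tumour cells much of that pyruvate is turned to lactate and exported instead of being oxidised in mitochondria. The pentose phosphate pathway branches off after the first step and supplies NADPH and the ribose of nucleotides. MYC binds DNA as a dimer with MAX, preferring the E-box CACGTG, and genes of glucose uptake and lactate production are among its textbook targets. Mediator carries signals from transcription factors to RNA polymerase II at promoters and enhancers. Many glycolytic steps can be run by any of several isozymes encoded by separate genes.

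Promoter sequences are shown for the 6 genes with the highest MYC folds in uninduced shMED30 cells, and for the 2 genes with both Mediator subunits and no MYC peak, to set the promoters of these groups side by side. Each is the RefSeq window of 300 bases, 250 before and 50 from a listed transcript start, in GRCh38.p14 and read 5′ to 3′ along the gene. Capitals mark CACGTG and its variant CACGCG, which reads CGCGTG on the other strand. The windows are chr11:18394313-18394612 (plus strand) for LDHA, chr10:6144671-6144970 (plus) for PFKFB3, chr1:42958819-42959118 (minus) for SLC2A1, chr1:8878637-8878936 (minus) for ENO1, chrX:78103998-78104297 (plus) for PGK1, chr2:74834920-74835219 (plus) for HK2, chr7:134646603-134646902 (plus) for BPGM and chr12:48105866-48106165 (plus) for PFKM.
LDHA: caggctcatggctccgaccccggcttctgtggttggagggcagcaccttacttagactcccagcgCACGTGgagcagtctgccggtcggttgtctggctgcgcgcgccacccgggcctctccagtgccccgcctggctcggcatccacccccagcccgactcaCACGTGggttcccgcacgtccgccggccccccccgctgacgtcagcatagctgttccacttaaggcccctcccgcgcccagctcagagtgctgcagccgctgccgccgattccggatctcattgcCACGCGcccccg
PFKFB3: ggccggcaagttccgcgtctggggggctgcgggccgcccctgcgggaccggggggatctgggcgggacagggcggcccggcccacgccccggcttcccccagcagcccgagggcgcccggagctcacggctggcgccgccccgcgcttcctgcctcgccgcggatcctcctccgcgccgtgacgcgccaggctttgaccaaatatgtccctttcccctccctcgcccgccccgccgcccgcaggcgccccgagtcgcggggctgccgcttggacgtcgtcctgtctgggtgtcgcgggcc
SLC2A1: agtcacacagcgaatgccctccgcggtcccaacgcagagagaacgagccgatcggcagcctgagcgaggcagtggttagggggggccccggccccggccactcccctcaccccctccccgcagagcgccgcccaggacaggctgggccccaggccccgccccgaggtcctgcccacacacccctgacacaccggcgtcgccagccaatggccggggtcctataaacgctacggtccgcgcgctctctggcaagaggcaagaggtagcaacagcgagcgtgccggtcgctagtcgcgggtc
ENO1: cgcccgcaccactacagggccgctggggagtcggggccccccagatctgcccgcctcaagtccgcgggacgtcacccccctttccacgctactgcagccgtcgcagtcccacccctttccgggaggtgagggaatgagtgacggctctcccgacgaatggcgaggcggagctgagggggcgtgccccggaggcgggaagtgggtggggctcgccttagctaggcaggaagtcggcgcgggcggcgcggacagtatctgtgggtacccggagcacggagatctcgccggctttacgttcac
PGK1: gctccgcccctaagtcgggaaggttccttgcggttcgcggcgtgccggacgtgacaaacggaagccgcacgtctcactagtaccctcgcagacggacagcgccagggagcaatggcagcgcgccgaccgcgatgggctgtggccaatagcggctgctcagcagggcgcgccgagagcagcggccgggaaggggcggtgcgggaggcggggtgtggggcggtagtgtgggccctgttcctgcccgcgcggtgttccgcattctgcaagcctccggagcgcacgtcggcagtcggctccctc
HK2: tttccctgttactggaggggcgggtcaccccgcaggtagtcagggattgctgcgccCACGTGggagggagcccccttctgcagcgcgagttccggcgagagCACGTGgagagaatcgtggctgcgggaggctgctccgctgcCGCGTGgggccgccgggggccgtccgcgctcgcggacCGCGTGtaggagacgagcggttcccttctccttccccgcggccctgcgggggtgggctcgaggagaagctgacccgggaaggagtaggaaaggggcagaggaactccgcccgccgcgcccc
BPGM: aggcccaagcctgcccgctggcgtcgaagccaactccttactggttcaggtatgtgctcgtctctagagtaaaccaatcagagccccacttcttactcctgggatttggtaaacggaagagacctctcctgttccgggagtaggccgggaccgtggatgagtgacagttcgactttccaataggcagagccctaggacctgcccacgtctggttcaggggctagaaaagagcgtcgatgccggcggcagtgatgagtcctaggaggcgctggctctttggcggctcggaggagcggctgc
PFKM: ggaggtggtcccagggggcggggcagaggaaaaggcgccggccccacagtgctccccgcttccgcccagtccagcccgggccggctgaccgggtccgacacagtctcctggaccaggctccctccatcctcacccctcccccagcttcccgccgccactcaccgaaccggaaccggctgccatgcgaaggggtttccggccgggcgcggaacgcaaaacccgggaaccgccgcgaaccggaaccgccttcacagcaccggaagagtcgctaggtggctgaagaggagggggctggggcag

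LDHA and HK2 each held 2 copies of CACGTG in these windows, LDHA 1 copy of the variant and HK2 2 copies. The windows of PFKFB3, SLC2A1, ENO1, PGK1, BPGM and PFKM held neither. The MYC summit without doxycycline lay inside the window at LDHA (base 136), PGK1 (base 183) and HK2 (base 66). At PFKFB3, SLC2A1 and ENO1 it lay past the downstream end of the window, 471, 518 and 550 bp from the gene start, so these windows do not cover the MYC summit. The MED30 summits of BPGM and PFKM lay outside their windows too.

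The values given are the authors' deposited fold enrichments. They matched the fragment pileup at a peak's summit plus 1, over the local background plus 1. The added 1 lowers the fold most where the background is small, as in the shMED30 line, where the ENO1 peak with doxycycline had a deposited fold of 8.03 and a plain ratio of pileup to background of 16.1. Folds are therefore comparable within a list and not between libraries of different background. Percentiles rank a fold within its own list. The lists held 12040 to 14331 peaks for the libraries of parental cells, 4621 for MYC with doxycycline and 7158 without. Read totals were not analysed here. The background pileup recovered from fold and p was 1.60 to 2.56 fragments in the libraries of parental cells, 0.186 with doxycycline and 0.310 without, so the doxycycline library had 0.599 times the background of the other. Among marker genes of cell types, 3 of 4 epithelial ones had peaks of both Mediator subunits, KRT8 and KRT18 sharing 1 site. Both mesenchymal marker genes did too, while none of the 4 acinar, 2 endocrine and 3 leukocyte marker genes had a peak in any list and 1 of 2 liver marker genes, APOA1, had peaks of all 3 proteins. Over all protein-coding genes, 39.0% had peaks of both subunits and 52.3% a peak of any of the 3 proteins in parental cells. With so few marker genes, these counts do not settle the cell type.

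Most of the 33 genes carried all 3 proteins in parental cells. MED17 had a peak at 27 (81.8%, exact 95% interval 64.5 to 93.0%), against 47.9% of all protein-coding genes. MED30 had one at 24 (72.7%, 54.5 to 86.7%), against 41.7% of all genes, and MYC at 25 (75.8%, 57.7 to 88.9%), against 39.0%. All 3 proteins were counted at 22 genes (66.7%, 48.2 to 82.0%), against 31.2% of all genes, and any of them at 27 against 52.3%. Of the 25 members with MYC, all 25 had MED17 (92.3% of all MYC-bound genes), 22 had MED30 (83.3%) and 22 had both subunits (79.9%). Of the 24 with both subunits, 22 had MYC (80.0% of all such genes), and the other 2 were PFKM and BPGM. Both subunits without MYC were thus found at 6.06% of the members and 7.80% of all genes. The comparison with all genes is not matched on expression, which was not analysed here. In the shMED30 line, MYC had a peak at 7 of the 33 with doxycycline (21.2%, 8.98 to 38.9%), against 4.71% of all genes, and at 9 without it (27.3%, 13.3 to 45.5%), against 8.55%. Intervals cover counting error only and treat genes as independent.

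**Figure D1:**
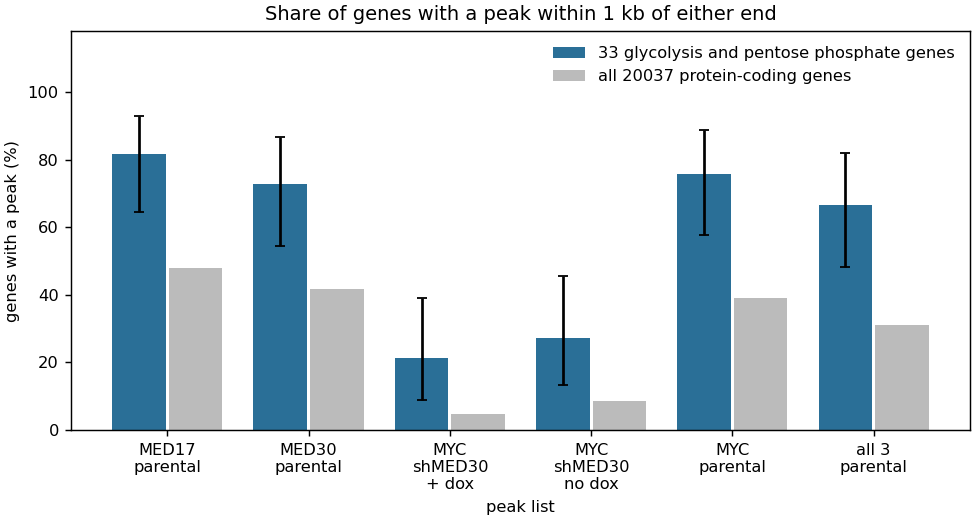
Share of genes with a peak within 1 kb of either end (%, vertical axis) in each peak list and for all 3 proteins in parental cells. Blue bars are the 33 genes with exact 95% binomial intervals and grey bars all 20037 protein-coding genes. The blue bar is the higher in each of the 6 pairs, from 21.2% against 4.71% with doxycycline to 81.8% against 47.9% for MED17.

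These counts fell when weak peaks were left out. With only peaks in the upper 50% by fold, 7 of the 33 carried all 3 proteins (8.46% of all genes did) and 16 carried MED17 (27.3% of all genes). In the parental libraries the fold itself was close to that of other bound genes. The median over the members with a peak was 5.22 against 5.19 over all genes with one for MED17, 5.27 against 5.05 for MED30, and 4.81 against 4.68 for parental MYC. For MYC in the shMED30 line it was 5.41 against 5.50 with doxycycline (7 members) and 7.68 against 5.91 without it (9 members). Parental MYC peaks were broader at the members, with a median width of 792 bp against 585 bp over all bound genes, and less so for MED17 (973 against 887 bp) and MED30 (791 against 722 bp).

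Glucose enters the cell through SLC2A1 (GLUT1) and, in some cell types, SLC2A3 (GLUT3). SLC2A1 (chromosome 1, 42925353 to 42958868, minus strand) was occupied at both ends. At its start, MED17 had a fold of 5.16, MED30 5.51, MYC without doxycycline 8.39 and parental MYC 8.11, and with doxycycline there was no peak. At its far end, the parental libraries had folds of 5.22 for MED17, 5.83 for MED30 and 4.18 for MYC, and neither shMED30-line list had a peak. Both Mediator subunits thus had folds at the far end no lower than at the start. SLC2A3 had no peak in any list, and the nearest of the parental libraries lay 24.2 kb (MED17) from the gene.

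Hexokinase traps glucose as its phosphate, and HK2, the isozyme induced in many tumours, carried the strongest parental MYC peak of the set. This peak (chromosome 2, 74834555 to 74835472) had a fold of 10.5, ranked at percentile 97.4, with 104 fragments at its summit. Its summit lay 876 bp downstream of the outer gene start and at -167 bp from a second listed start. MYC had a deposited fold of 7.09 there both with and without doxycycline, but plain ratios of pileup to background of 18.1 with it, 14.4 without it and 11.6 in parental cells. MED17 had a weak peak at the same place (3.88, percentile 17.0), and MED30 had none. HK2 therefore stood at the top of the set for MYC and near its bottom for Mediator.

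Phosphofructokinase commits sugar to glycolysis, and its isozyme genes were bound unevenly. PFKL (MED17 8.08, MED30 4.29, parental MYC 4.09) and PFKP (5.96, 4.76 and 4.81) carried all 3 proteins. PFKM carried MED17 (4.44) and MED30 (4.38) without MYC. PFKP was also the only member with a MYC peak with doxycycline (4.53) and none without it. PFKFB3, which makes the activator fructose-2,6-bisphosphate, had folds of 5.89 for MED17, 4.88 for MED30, 5.54 for MYC with doxycycline, 9.32 without it and 5.59 in parental cells. Its MYC summits lay within 30 bp of each other in the 3 MYC lists, at 457, 471 and 443 bp past the gene start in the same order.

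The remaining upper enzymes differed in strength. GPI, the phosphoglucose isomerase, had a MED17 peak of 4.49 and a MYC peak of 4.77 at its outer start and no MED30 peak there. Stronger sites lay at the start listed for GPI inside the gene, where MED17 had a fold of 5.09, MED30 7.33 and parental MYC 5.64. ALDOA, the muscle-type aldolase, had folds of 3.94, 5.22 and 5.98 for MED17, MED30 and parental MYC, and the MYC summit lay 995 bp inside the gene. TPI1, which interconverts the triose phosphates, was the second strongest of the upper genes for MED17 (7.40) and the strongest for MED30 (9.70, percentile 98.0), with a MYC fold of 4.35.

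All 7 genes of lower glycolysis had peaks of both Mediator subunits, and 6 had MYC as well. PGK1, phosphoglycerate kinase, which makes the first ATP of the pathway, was the strongest Mediator site of the set. Its folds were 11.4 for MED17 (percentile 99.3), 16.9 for MED30 (99.7), 5.13 for MYC with doxycycline, 7.68 without it and 6.68 in parental cells. Its MED30 summit pileup was 160 fragments, and all 5 summits fell between -192 and -68 bp from the gene start. The parental MYC peak ranked at percentile 85.5, so PGK1 led the set for Mediator and HK2 led it for MYC.

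ENO1, the main enolase, had folds of 4.79 for MED17, 5.74 for MED30, 8.03 for MYC with doxycycline, 7.97 without it and 6.42 in parental cells. Among the members it had the highest deposited fold and pileup in the doxycycline list (percentile 92.9, 14 fragments), while by the plain ratio HK2 (18.1) and PGK1 (16.4) stood above it (16.1). ENO2, the neuronal enolase, had folds of 5.38, 5.58 and 4.56 for MED17, MED30 and parental MYC and no peak in the shMED30 line. GAPDH had folds of 4.40 for MED17, 5.55 for MED30, 3.82 for MYC without doxycycline and 5.31 in parental cells, and none with doxycycline. Its parental peaks were wide, at 1722 to 1740 bp.

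PGAM1, phosphoglycerate mutase, had a MED17 fold of 7.31 and weaker MED30 (3.99) and MYC (3.95) peaks. PKM, pyruvate kinase, had the lowest MED17 and MYC folds of the genes with all 3 proteins, at 3.88 and 3.34 (percentile 10.9), and a MED30 fold of 4.21. BPGM, which makes 2,3-bisphosphoglycerate, carried MED17 (4.68) and MED30 (4.97) and no MYC peak in any list. The enzymes that finish glycolysis therefore ranged from the top to the bottom of the lists.

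Lactate dehydrogenase A, which turns pyruvate to lactate, had a peak in each of the 5 lists. LDHA (chromosome 11, 18394563 to 18408425) had folds of 5.93 for MED17, 9.77 for MED30, 4.85 for MYC with doxycycline, 12.1 without it and 7.73 in parental cells. The percentiles of the last 3 were 57.4, 97.7 and 91.5. All 3 MYC summits lay between -157 and -115 bp from the gene start. SLC16A1 (MCT1), which carries lactate and pyruvate across the membrane, had folds of 4.08 for MED17, 7.45 for MED30, 5.41 for MYC with doxycycline, 5.91 without it and 6.32 in parental cells.

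The genes that send pyruvate into or away from mitochondria had lower parental MYC folds than LDHA. PDK1, the kinase that switches pyruvate dehydrogenase off, had a MED17 fold of 4.72, a MED30 fold of 5.40 and a parental MYC fold of 3.61. PDHA1, the catalytic alpha subunit of that enzyme, had folds of 5.06, 6.04 and 4.21. PDHB, its beta subunit, had a MED17 peak of 6.45 and a MYC peak of 4.87 and no MED30 peak. None of these had a MYC peak in the shMED30 line.

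All 6 pentose phosphate genes carried all 3 proteins in parental cells. Among the oxidative steps, PGLS, the phosphogluconolactonase, had folds of 8.47 for MED17, 4.96 for MED30 and 6.06 for MYC, and PGD, which yields NADPH, had 6.65, 5.32 and 4.75. Among the steps that make and recycle ribose phosphate, RPIA had the strongest MYC peak (7.70, percentile 91.4) with weaker MED17 (4.20) and MED30 (5.17), and RPE had the strongest MED30 peak (8.15) with MED17 at 5.60 and MYC at 4.47. TKT, transketolase, had folds of 5.04, 4.71 and 4.58, and TALDO1, transaldolase, 5.91, 3.64 and 3.70. RPIA alone of the 6 had a MYC peak in the shMED30 line, of fold 4.76 without doxycycline, and none of the 6 had one with it.

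**Figure D2:**
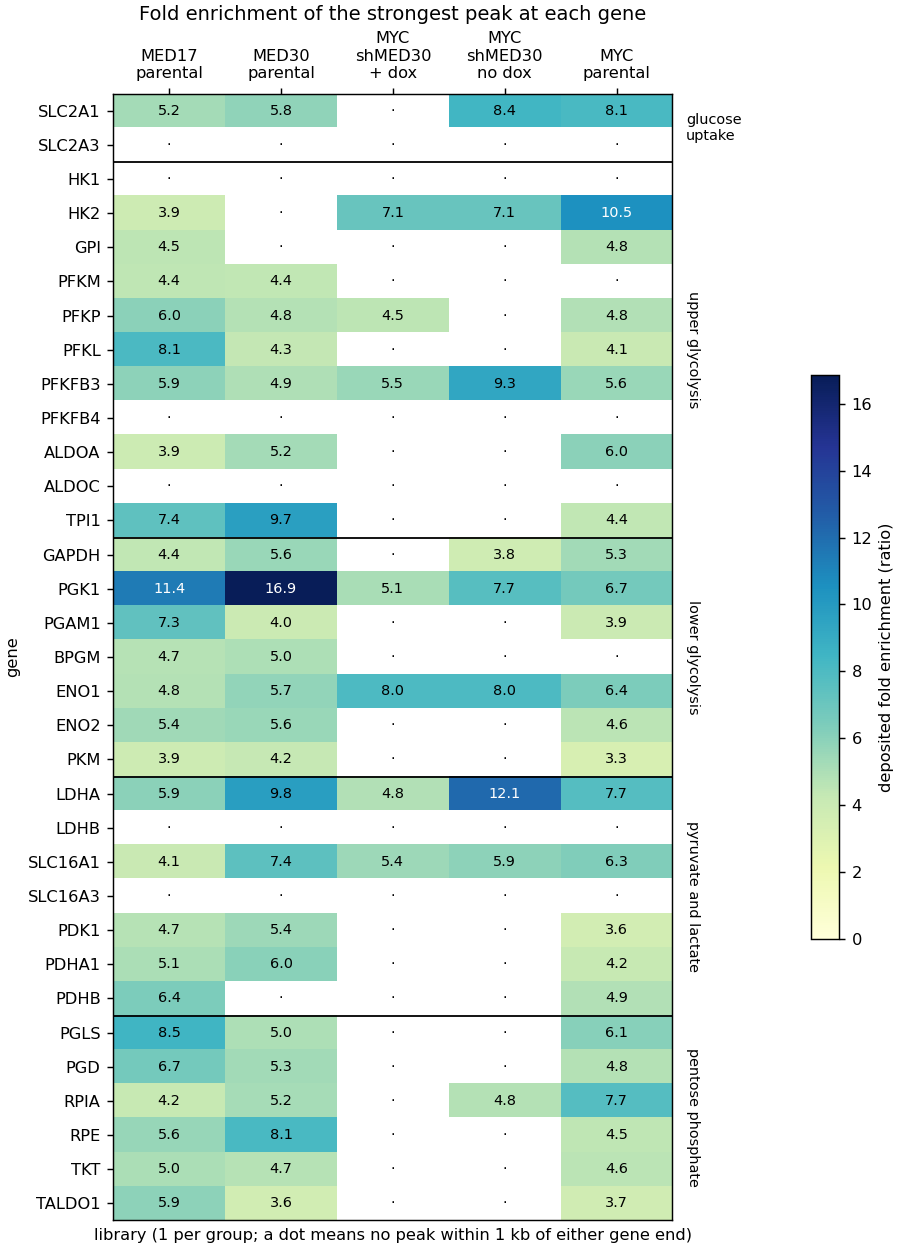
Deposited fold enrichment (colour and number, a ratio) of the strongest peak at each of the 33 genes (rows, grouped by pathway stage) in the 5 libraries (columns, 1 library each). A dot marks no peak within 1 kb of either end, and values compare within a column. PGK1 stands out for MED30 (16.9), HK2 for parental MYC (10.5) and LDHA for MYC without doxycycline (12.1), and 6 genes have no value in any column.

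The 6 genes without a peak at either end were SLC2A3, HK1, PFKFB4, ALDOC, LDHB and SLC16A3, and each has an isozyme or sister transporter in the set that did have peaks (SLC2A1, HK2, PFKFB3, ALDOA, LDHA and SLC16A1). LDHB had nothing within 133 kb in the parental libraries, and SLC2A3 nothing within 24.2 kb. ALDOC, the brain-type aldolase, had a MED30 peak 1.20 kb away and no other parental peak within 20.3 kb. HK1, SLC16A3 and PFKFB4 had peaks at starts listed inside the gene, which the rule on gene ends does not count. At HK1 these were weak (MED17 4.24, MED30 3.46, parental MYC 4.09). At SLC16A3, the lactate exporter MCT4, MED17 had a fold of 5.07 and MED30 of 7.37 (percentile 92.0) within 50 bp of a listed start, and at PFKFB4 parental MYC had a fold of 3.90. Away from listed starts, SLC16A3 also held MYC peaks in parental cells (3.69) and without doxycycline (4.63). HK1 (5.34) and PFKFB4 (3.82) held such MYC peaks without doxycycline, and none of these genes held one with it.

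Counting peaks within 1 kb of any listed start, a definition added after these values were seen, gave 28 of 31 genes with MED17, 25 with MED30 and 25 with parental MYC, against 51.8%, 44.8% and 42.2% of all genes in that table. SLC2A3 and SLC16A1 had no entry in the table of starts. The ends of other protein-coding genes lay within 1 kb of the peaks at PFKM (SENP1), PFKP (LOC124902536), PFKL (AIRE), TPI1 (USP5) and ENO2 (LRRC23). Peaks there can be counted for either gene.

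Where the proteins met at a gene, their peaks nearly always overlapped but their summits were often apart. At least 1 bp was shared by MED30 and MED17 peaks at 23 of 24 genes, by MYC and MED17 peaks at 24 of 25 and by MYC and MED30 peaks at 22 of 22. Such overlap was about as common over all genes with both peaks, at 7581 of 7805, 6849 of 7209 and 6269 of 6506. PKM was bound by all 3 with a MED17 peak that lay apart from the others. Summits within 250 bp of each other were found at 12 of 24, 10 of 25 and 12 of 22 genes. In the same order, 52.1%, 52.1% and 67.3% of all genes with both peaks had summits that close. The median distance between MYC and MED30 summits was 227 bp at the members and 163 bp over all genes with both.

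Summit positions depended on which start they were measured from. From the outer gene start, MED17 summits lay downstream at 23 of 26 genes with a known start (88.5%, median 243 bp), against 75.3% of all bound genes (median 206 bp). MED30 summits were downstream at 12 of 23 (52.2%, median 18 bp), against 49.1% of all bound genes, and parental MYC summits at 14 of 24 (58.3%, median 143 bp), against 55.0% (median 30.5 bp). From the nearest listed start, a measure added after these values were seen, MED17 summits were downstream at 18 of 26 (69.2%), against 68.4% of all bound genes. MED30 summits were then downstream at 7 of 23 (30.4%), against 40.8%, and MYC summits at 10 of 24 (41.7%), against 46.9%, so the direction turned for both. At HK2, PFKP, ALDOA, TPI1 and ENO1 the MYC summit lay more than 500 bp past the outer start. From the nearest listed start it lay at -167 bp at HK2, 79 bp at PFKP, -486 bp at ALDOA, -54 bp at TPI1 and 561 bp at ENO1.

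**Figure D3:**
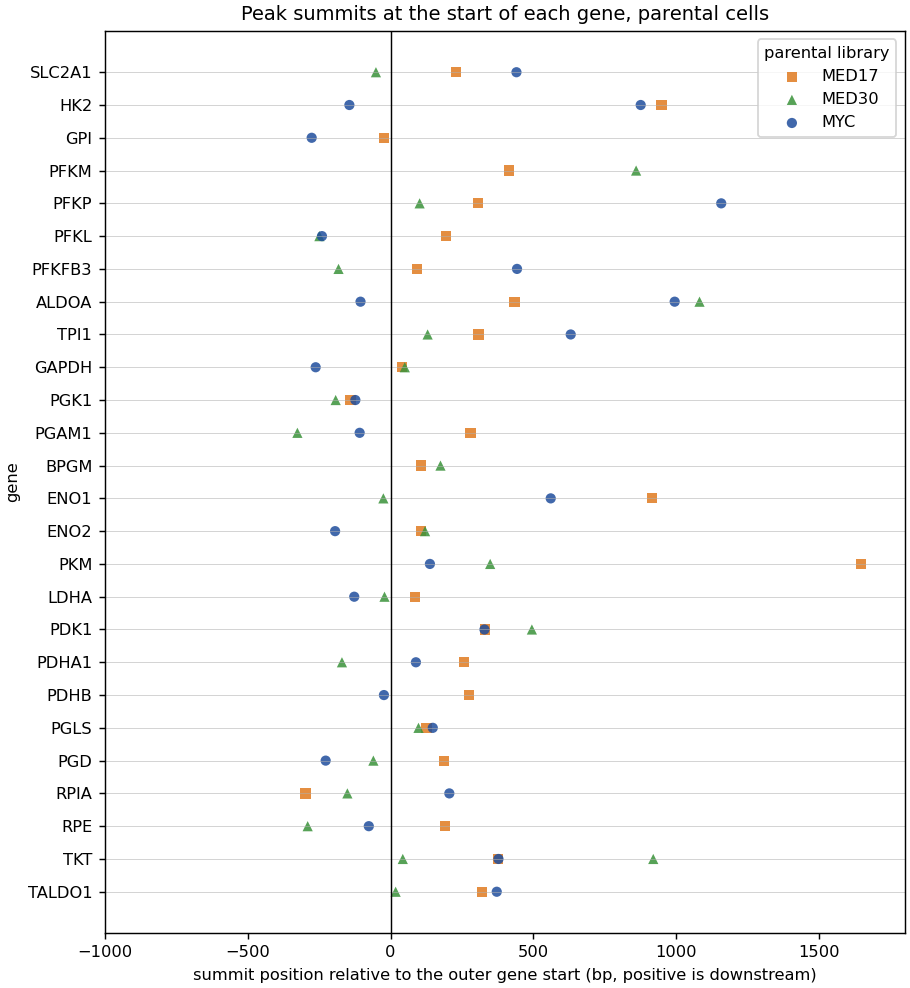
Position of every peak summit at the outer gene start (bp, positive is downstream) for MED17 (squares), MED30 (triangles) and MYC (circles) in parental cells, 1 library each, for the members with a known start and a peak there. MED17 squares fall to the right of the outer start at 23 of 26 genes (18 from the nearest listed start), and MED30 triangles scatter around it.

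CACGTG was found in a promoter window of 7 of the 31 members with one (22.6%, exact 95% interval 9.59 to 41.1%), against 10.9% of 15843 protein-coding genes. The members have more listed starts per gene, and counted per window the shares were 12.3% of 57 windows against 8.34% of all windows. The 7 genes were ALDOA, ALDOC, GAPDH, HK2, LDHA, PDHB and PFKFB3. All but ALDOC had a parental MYC peak. Of the 24 members with a window and a parental MYC peak, 6 held the E-box. Over all genes with a window, 15.0% of those with such a peak held it, against 8.03% of those without. Of the 8 members with a window and a MYC peak in the uninduced line, 4 held CACGTG, against 22.5% of all such genes.

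The nearest CACGTG lay within 100 bp of the parental MYC summit at 2 of the 6 members with both (median 212 bp), against 51.1% of 977 genes (median 90.5 bp). The nearest CACGTG lay 7 bp from the MYC summit without doxycycline at HK2 and 31 bp from it at LDHA, and 21 and 43 bp from the parental MYC summit. It lay 211 bp from the parental summit at PDHB, 214 bp at ALDOA and 931 bp at GAPDH. At PFKFB3 the E-box belonged to a second start, 57463 bp from the parental summit at the outer start. Inner MYC peaks lay at that second start, 2 in parental cells and 1 without doxycycline (fold 3.73). The distances given here do not take in those inner peaks. The PGK1 window, which held the MYC summit without doxycycline, had neither form, which says only that these letters are missing from those 300 bases. The shorter ACGTG, the core read by hypoxia-inducible factors and part of every CACGTG, was found on either strand in 36.8% of member windows and 23.0% of all windows.

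The MYC peaks of the shMED30 line without doxycycline fell mostly on the members with the strongest parental MYC peaks. All 9 members with a peak there had a parental MYC peak as well, as did 95.3% of all genes with a peak there. Of the 25 members with a parental MYC peak, 9 had one in the uninduced line (36.0%, 18.0 to 57.5%) and 7 with doxycycline (28.0%), against 20.9% and 11.6% of all genes with a parental MYC peak. Ranked by parental fold, the first 7 members (HK2, SLC2A1, LDHA, RPIA, PGK1, ENO1 and SLC16A1, folds of 6.32 to 10.5) all had one, and 2 of the other 18 (PFKFB3 and GAPDH) did. Over all genes, 59.4% of those at or above a parental fold of 6.32 had a peak in the uninduced line, against 11.7% of those below it. That limit is the fold of the 7th member and was set where the run of members with a peak ends, so the 7 of 7 follows from the limit. The uninduced library was the shallower, with a background pileup of 0.310 against 2.56 fragments in parental cells, and the part of depth in this difference was not tested.

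**Figure D4:**
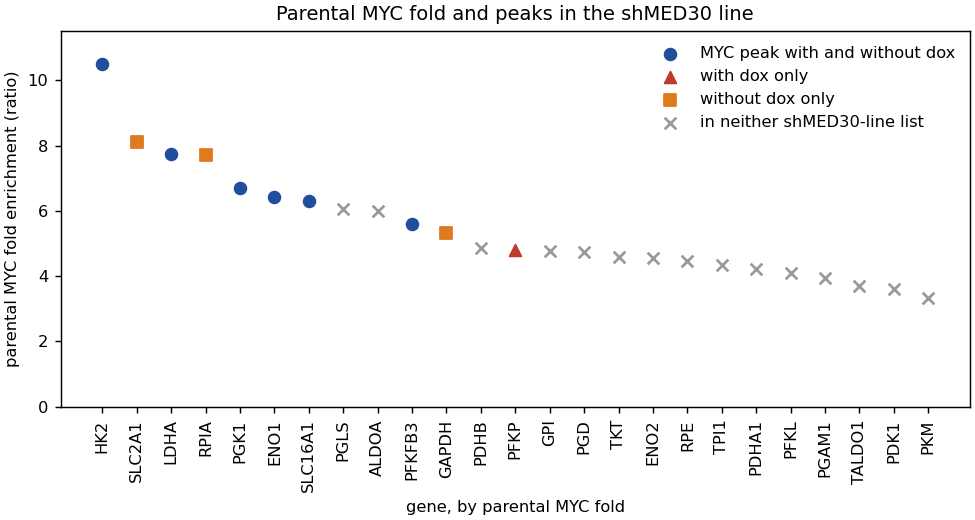
Parental MYC fold enrichment (vertical axis, a ratio) of the 25 members with a parental MYC peak, in descending order, marked by their MYC peaks in the shMED30 line. The first 7 genes have a peak without doxycycline, and 13 of the 14 genes from PDHB downwards have none in either list of that line, PFKP being the exception.

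With the hairpin induced, 6 of the 9 members with a MYC peak in the uninduced line kept one (66.7%, exact 95% interval 29.9 to 92.5%), against 33.5% of all genes with such a peak. These shares are not matched on peak strength. In the uninduced line the median summit pileup was 14 fragments over the 9 members, against 9 over all genes with a peak. Those kept were HK2, PFKFB3, PGK1, ENO1, LDHA and SLC16A1. They take in hexokinase, synthesis of the phosphofructokinase activator, ATP formation, enolase, lactate production and lactate transport. Those without an overlapping peak were SLC2A1, GAPDH and RPIA, 9.09% of the set, against 5.69% of all genes. PFKP had a peak with doxycycline and none without, as did 1.74% of all genes. Its summit pileup was 5 fragments, and the site overlapped a parental MYC peak.

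The summit pileups were small in both libraries. With doxycycline they were 10 fragments at HK2, 14 at ENO1, 9 at SLC16A1, 6 at PGK1, 7 at PFKFB3 and 6 at LDHA. Without it they were 12 at HK2, 20 at ENO1, 14 at SLC16A1, 13 at PGK1, 16 at PFKFB3 and 22 at LDHA. Each kept gene thus had the lower pileup with doxycycline, in a library with 0.599 times the background. Lower MYC binding and a shallower library cannot be told apart here.

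The ratio of pileups with over without doxycycline had a median of 0.552 over these 6 genes, against 0.647 over all 573 genes that kept a peak and 0.551 over the 96 of them with at least 20 fragments in the uninduced line. LDHA had the lowest ratio of the 6, 0.273 (exact 95% interval 0.0905 to 0.694), and 2 of the 573 genes, LDHA included, were that low or lower. Among the 96 genes with at least 20 fragments, as LDHA had, the lowest ratio was 0.257. Its interval takes in the ratio of the backgrounds, 0.599, so at this depth a drop at LDHA beyond the difference in depth was not detectable. HK2 had the highest ratio, 0.833 (0.323 to 2.10). A gene enters these ratios only with a called peak in both lists.

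Of the genes without a doxycycline peak, SLC2A1 had 16 fragments in the uninduced line, as many as PFKFB3, which kept its peak. GAPDH had 8 and RPIA 6. Over all genes, those that kept a peak had a median pileup of 12 fragments in the uninduced line and those that lost it 8, and the weakest peak called with doxycycline had 3 fragments. GAPDH left the uninduced list at a −log10 q of at least 2, which gave 6 of 8 genes kept.

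**Figure D5:**
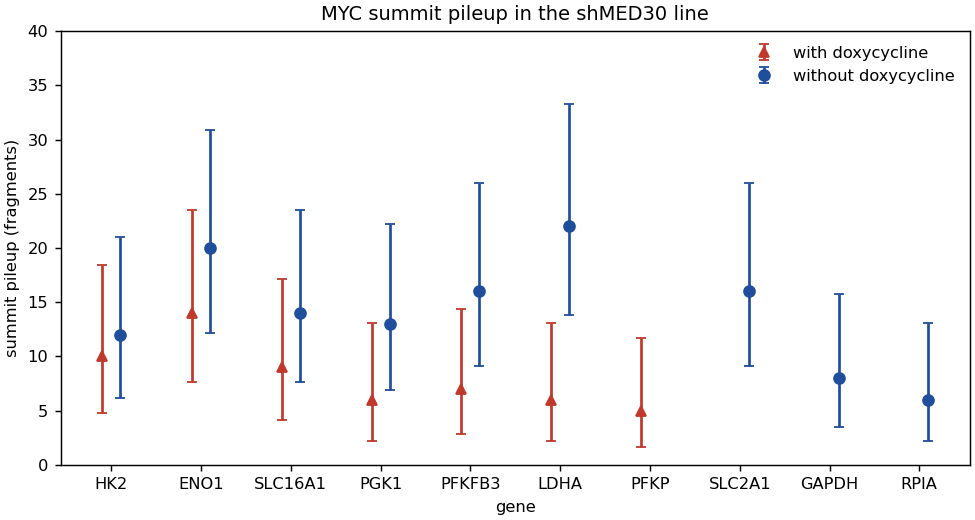
MYC summit pileup (fragments, vertical axis) at the 10 members bound by MYC in the shMED30 line, with doxycycline (triangles) and without (circles), 1 library each. Bars are exact 95% Poisson intervals for counting error only. The 2 intervals overlap at ENO1, HK2, SLC16A1, PGK1 and PFKFB3 and do not at LDHA, where the upper bound with doxycycline is 13.1 and the lower bound without it 13.8. Pileups are not corrected for depth, and the doxycycline library had 0.599 times the background of the other. The interval of the pileup ratio at LDHA (0.0905 to 0.694) takes in that value.

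Among other genes of glucose use, 2 lists differed in how many genes had peaks. Of 20 isozymes restricted to other tissues and gluconeogenic genes, 3 carried all 3 proteins (ENO3, GAPDHS and PKLR, with parental MYC folds of 7.21, 6.16 and 3.40) and 16 had no peak in any list. SLC2A4, the insulin-regulated glucose transporter, had a MYC peak of 5.63 without doxycycline and 6.26 in parental cells, and no Mediator peak. Of 26 further genes, 13 carried all 3 proteins, 19 MED17, 17 MED30 and 20 parental MYC, and 2 had no peak in any list. In the same order, all 3 proteins, MED17, MED30 and parental MYC were found at 22, 27, 24 and 25 of the 33 genes. Over all protein-coding genes the shares were 31.2%, 47.9%, 41.7% and 39.0%. A high share with parental MYC was thus not particular to the 33 genes. No difference between the lists and the 33 genes was tested. The strongest parental MYC peaks were at G6PC3 (13.5), a glucose-6-phosphatase, MLXIP (7.58), a glucose-sensing transcription factor, GFPT1 (6.45), which opens the hexosamine pathway, and PDP2 (6.43), a pyruvate dehydrogenase phosphatase. MLXIP was the single one of 5 such genes with a peak in the uninduced line that kept it, with folds of 7.07 with doxycycline and 6.78 without. Over all genes with a peak in that line, 33.5% kept it.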

How the data were processed

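Peak lists of 5 ChIP-seq libraries were analysed, 1 per group, so nothing was tested over replicates. Per the submitters' processing notes, the tools were MACS2, Bowtie2, Trim Galore and deepTools and the build hg38. The sources used here give no versions and no input control. Each list was deposited by the authors in narrowPeak layout. The deposited fold enrichment is a ratio, significance was deposited as −log10 p and −log10 q, and the deposited score repeats −log10 q on a scale multiplied by 10 (not used). Lists from parental cells start at a q of 0.05 and those of the shMED30 line at 0.1.

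Gene ends came from the RefSeq table of GRCh38.p14, and strand, starts and sequences from the RefSeq promoter table, which held 31 of the 33 members. A gene kept its MYC peak if a peak without doxycycline shared at least 1 bp with one with it. Pileup and background were solved from fold and p (a Poisson tail) within 0.002 log10 units, which succeeded for at least 99.59% of peaks per list; the solver and the window search were tested on simulated data. Shares have exact (Clopper-Pearson) 95% intervals. Members, other gene lists and the rule for named genes (all members, with values in every list for those with a peak in the shMED30 line, and the 4 highest of each other list) were chosen with earlier results of these data known. Python 3.11.15, pandas 2.3.3 and scipy 1.17.1 were used. Alternatives changed distance, threshold, overlap and motif.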

Additional observations from a re-analysis of the deposited data

How the results depend on the processing

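No paired analysis was possible because each group holds 1 library, and leaving out a replicate was not possible for the same reason. Of 66 recomputed counts, 54 were within 1.5 times the reported one, including every count with a distance of 500 bp or 5 kb, the gene start alone or a −log10 q of at least 2, and every count of kept MYC peaks (5 to 7). With only peaks in the upper 50% by fold, MED17 was counted at 16 members and all 3 proteins at 7. With the strongest 4621 peaks of each list, MED17, MED30 and parental MYC were counted at 14, 15 and 12, against 20.4%, 18.6% and 14.1% of all genes, and all 3 proteins at 7, against 5.15%; this last was added after seeing the data. From the nearest listed start, also added, MED30 summits were downstream at 7 members. A reciprocal overlap of at least 50% left 15 of 24 members where MED30 and MED17 overlapped (62.5%), against 62.6% of all genes with both. Summits within 250 bp left 12 for MED30 with MED17, 10 for MYC with MED17 and 12 for MYC with MED30. With CACGCG counted as well as CACGTG, 11 of 31 members had a match (35.5%), against 26.3% of all genes. Counted per window, the shares were 21.1% for the members and 21.0% for all windows. Depth limits the shMED30-line lists most, where summit pileups at the members were 5 to 22 fragments.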

Other observations

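Peaks inside the genes, more than 1 kb from either end, enter no count by gene ends above, and those near a listed start enter the counts by any listed start. They were found at 5 members for MED17, 4 for MED30, 7 for parental MYC and 4 for MYC without doxycycline, and at none with doxycycline. Inner peaks were counted for the members only, so these counts have no share over all genes beside them. The list with doxycycline was also the shorter, with 4621 peaks against 7158 without it. PFKFB3, which makes the activator of phosphofructokinase, held the most inner peaks. Its strongest inner MYC peak in parental cells (chromosome 10, 6163591 to 6164236) had a fold of 9.72, above the 5.59 at its start, and lay 18914 bp past that start. A MED17 peak of fold 7.87 overlapped it. The strongest inner MED30 peak of PFKFB3 (7.61) lay 43 bp from its second listed start. PFKM, which had no MYC peak at its ends, had an inner MYC peak of 5.01 and an inner MED17 peak of 4.51. PDK1 had 2 inner MYC peaks in parental cells, the stronger of fold 3.68.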
